A study of Caenorhabditis elegans with 2 samples.

Results

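The autophagy core genes of Caenorhabditis elegans described here are lgg-1, lgg-2, atg-3, atg-7, unc-51, bec-1, atg-9, atg-18, sqst-1 and epg-5, 10 of the 19973 protein-coding genes annotated on the nuclear chromosomes. They were taken by name, but with earlier results of these data known. Every listed region that overlapped the stretch from 5 kb upstream of the gene to its far end (its span) was collected. The regions come from a ChIP-seq experiment, chromatin immunoprecipitation followed by sequencing, that mapped where the bZIP transcription factor JUN-1, a relative of the AP-1 protein Jun, sits on DNA. Chromatin was prepared from whole L3 larvae, mixed in sex and of unknown age, of strain OP234, whose genotype is unc-119(ed3) III; wgIs234 and whose transgene wgIs234 carries eGFP-tagged jun-1. The larvae form 1 group with 2 biological replicates, by the labels. The sources used here do not give the copy number of the transgene or say whether native jun-1 is also active. All cell types of the larva were pooled, so a region in few cells and a weak region in many cells cannot be told apart.

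Autophagy encloses cytoplasm in a double membrane, the autophagosome, which then fuses with lysosomes so that its contents are degraded. A protein kinase complex starts the process, a lipid kinase complex marks the membrane, and a ubiquitin-like conjugation pathway attaches Atg8-type proteins to it. In C. elegans autophagy is known for its part in development, starvation survival and long life.

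The authors deposited 2738 peaks that passed the irreproducible discovery rate procedure, which compares how the replicates rank regions (IDR peaks). They also deposited 20820 regions called from both replicates pooled, 27417 regions for replicate 1 and 28475 for replicate 2. Each region has the authors' signal value, a score of unstated scale. It was used to rank and describe regions within a list, with rank 1 the strongest. Ratios of replicate 2 to replicate 1 were also taken, and are read only beside those of all matched IDR peaks. IDR peaks carry the pooled signal value, with a range of 31.4 to 474 and a median of 47.7. Each IDR peak at the 10 genes had the same rank in the pooled list, and no other pooled region there reached 31.4. Only 64.9% of all IDR peaks were among the 2738 strongest regions of both replicates. Being listed thus does not mean like ranks in both. No source used here gives the read depth, which therefore is unknown for every region. With 1 group there is no comparison of conditions and no test, and the spread is shown by the values of the 2 replicates.

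At 8 of the 10 genes an IDR peak lay in the span, against 20.7% of all coding genes and 20.7% of the 16803 coding genes with a span as long as those of the 10 (5760 to 16022 bp). Only atg-18 and epg-5 had none. The 8 genes held 12 IDR peaks, each 390 bp wide, with signal values from 33.3 to 127 and a median of 62.4. The strongest lay at lgg-2, lgg-1, atg-7 and sqst-1. A promoter was taken to run from 1000 bp before to 500 bp after the 5′ end of a coding transcript. By that measure the summit, the point of highest signal, lay in the promoter of 4 of the 10 genes, lgg-1, lgg-2, atg-3 and atg-9, against 9.5% of all coding genes. At atg-3 the summit counts only through a short transcript and lies past the end of the gene. Since the genes were chosen with earlier results known, these counts only describe where regions were listed. They say nothing of transcription.

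The windows below are the summit and 50 bp to either side for the 4 strongest peaks and for every other peak that held a searched motif. They were read from the RefSeq genome WBcel235, which is ce11, on the strand of the named gene and 5′ to 3′. Capitals mark a motif on either strand, and windows all in lower case had no match to any motif searched.
lgg-2, 316 bp upstream, chrIV:10936169-10936269, minus strand: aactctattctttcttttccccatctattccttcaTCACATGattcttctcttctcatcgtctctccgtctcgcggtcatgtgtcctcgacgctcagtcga
lgg-1, 900 bp upstream, chrII:6348569-6348669, minus strand: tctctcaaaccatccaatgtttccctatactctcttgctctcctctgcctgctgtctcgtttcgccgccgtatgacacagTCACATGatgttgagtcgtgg
lgg-1, 58 bp upstream, chrII:6347727-6347827, minus strand: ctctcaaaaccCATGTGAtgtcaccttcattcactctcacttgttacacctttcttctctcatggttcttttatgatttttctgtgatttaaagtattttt
lgg-1, 820 bp downstream, chrII:6346849-6346949, minus strand: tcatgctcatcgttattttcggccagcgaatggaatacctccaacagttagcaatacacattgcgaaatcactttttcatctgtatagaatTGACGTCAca
atg-7, 1965 bp upstream, chrIV:11082970-11083070, minus strand: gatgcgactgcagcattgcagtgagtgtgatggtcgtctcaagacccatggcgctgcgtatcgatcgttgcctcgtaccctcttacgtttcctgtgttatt
sqst-1, 1692 bp upstream, chrIV:12032540-12032640, plus strand: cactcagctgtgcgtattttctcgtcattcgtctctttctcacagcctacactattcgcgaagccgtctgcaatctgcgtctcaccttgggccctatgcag
atg-9, 132 bp upstream, chrV:349203-349303, plus strand: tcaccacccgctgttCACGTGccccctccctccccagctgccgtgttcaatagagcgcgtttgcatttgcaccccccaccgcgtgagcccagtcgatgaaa
bec-1, 1886 bp upstream, chrIV:5666261-5666361, minus strand: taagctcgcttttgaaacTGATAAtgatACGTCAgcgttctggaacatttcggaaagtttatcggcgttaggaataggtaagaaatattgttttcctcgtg
unc-51, 1533 bp upstream, chrV:20005968-20006068, minus strand: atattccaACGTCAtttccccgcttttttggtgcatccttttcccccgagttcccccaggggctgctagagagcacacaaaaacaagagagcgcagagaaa

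Both Atg8-type genes had more than 1 IDR peak, and the strongest of each was within the 500 strongest regions. LGG-1 and LGG-2 are the ubiquitin-like proteins that are attached to lipid in the growing autophagosome membrane. At lgg-1 (WBGene00002980, chrII:6346960-6347719, minus strand) there were 3 IDR peaks, which were also its only pooled regions. The strongest, at chrII:6348424-6348813, had its summit in intergenic sequence 900 bp upstream of the 5′ end and a signal value of 121 (rank 160). It was rank 107 in replicate 1 and rank 209 in replicate 2, with signal values of 61.3 and 63.3 in those lists. A peak over the start of the gene, with its summit 58 bp upstream, had a pooled signal value of 60.3 (rank 832), with 22.7 in replicate 1 and 37.6 in replicate 2. The summit of the remaining peak, 64.5 pooled (rank 713), 20.8 in replicate 1 and 43.0 in replicate 2, lay 820 bp downstream of the 5′ end and past the end of lgg-1. It was within the promoter of the next gene on the same strand, C32D5.8, 935 bp upstream of that gene's 5′ end.

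At lgg-2 (WBGene00002981, chrIV:10934196-10935903, minus strand), both IDR peaks lay in the promoter. The stronger, at chrIV:10936024-10936413, had the highest signal value of the 12 peaks, 127 (rank 142), with its summit 316 bp upstream of the outer 5′ end. It stood at rank 142 in replicate 1 (signal value 56.0) and rank 150 in replicate 2 (71.4), the closest pair of ranks among the 12. From the 5′ end of the shorter transcript ZK593.6b.1 the same summit was 1180 bp upstream. The other peak lay in an intron, 330 bp downstream of the outer 5′ end and 534 bp upstream of that of the shorter transcript, with 64.8 pooled (rank 703), 33.3 in replicate 1 and 32.8 in replicate 2. A further 3 pooled regions at lgg-2 had signal values of 13.3 to 28.5 and were not in the IDR list. Having 2 or more IDR peaks in the span, as lgg-1, lgg-2 and bec-1 did, was seen at 4.24% of coding genes, and 3 or more, as at lgg-1, at 1.05%.

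**Figure D1:**
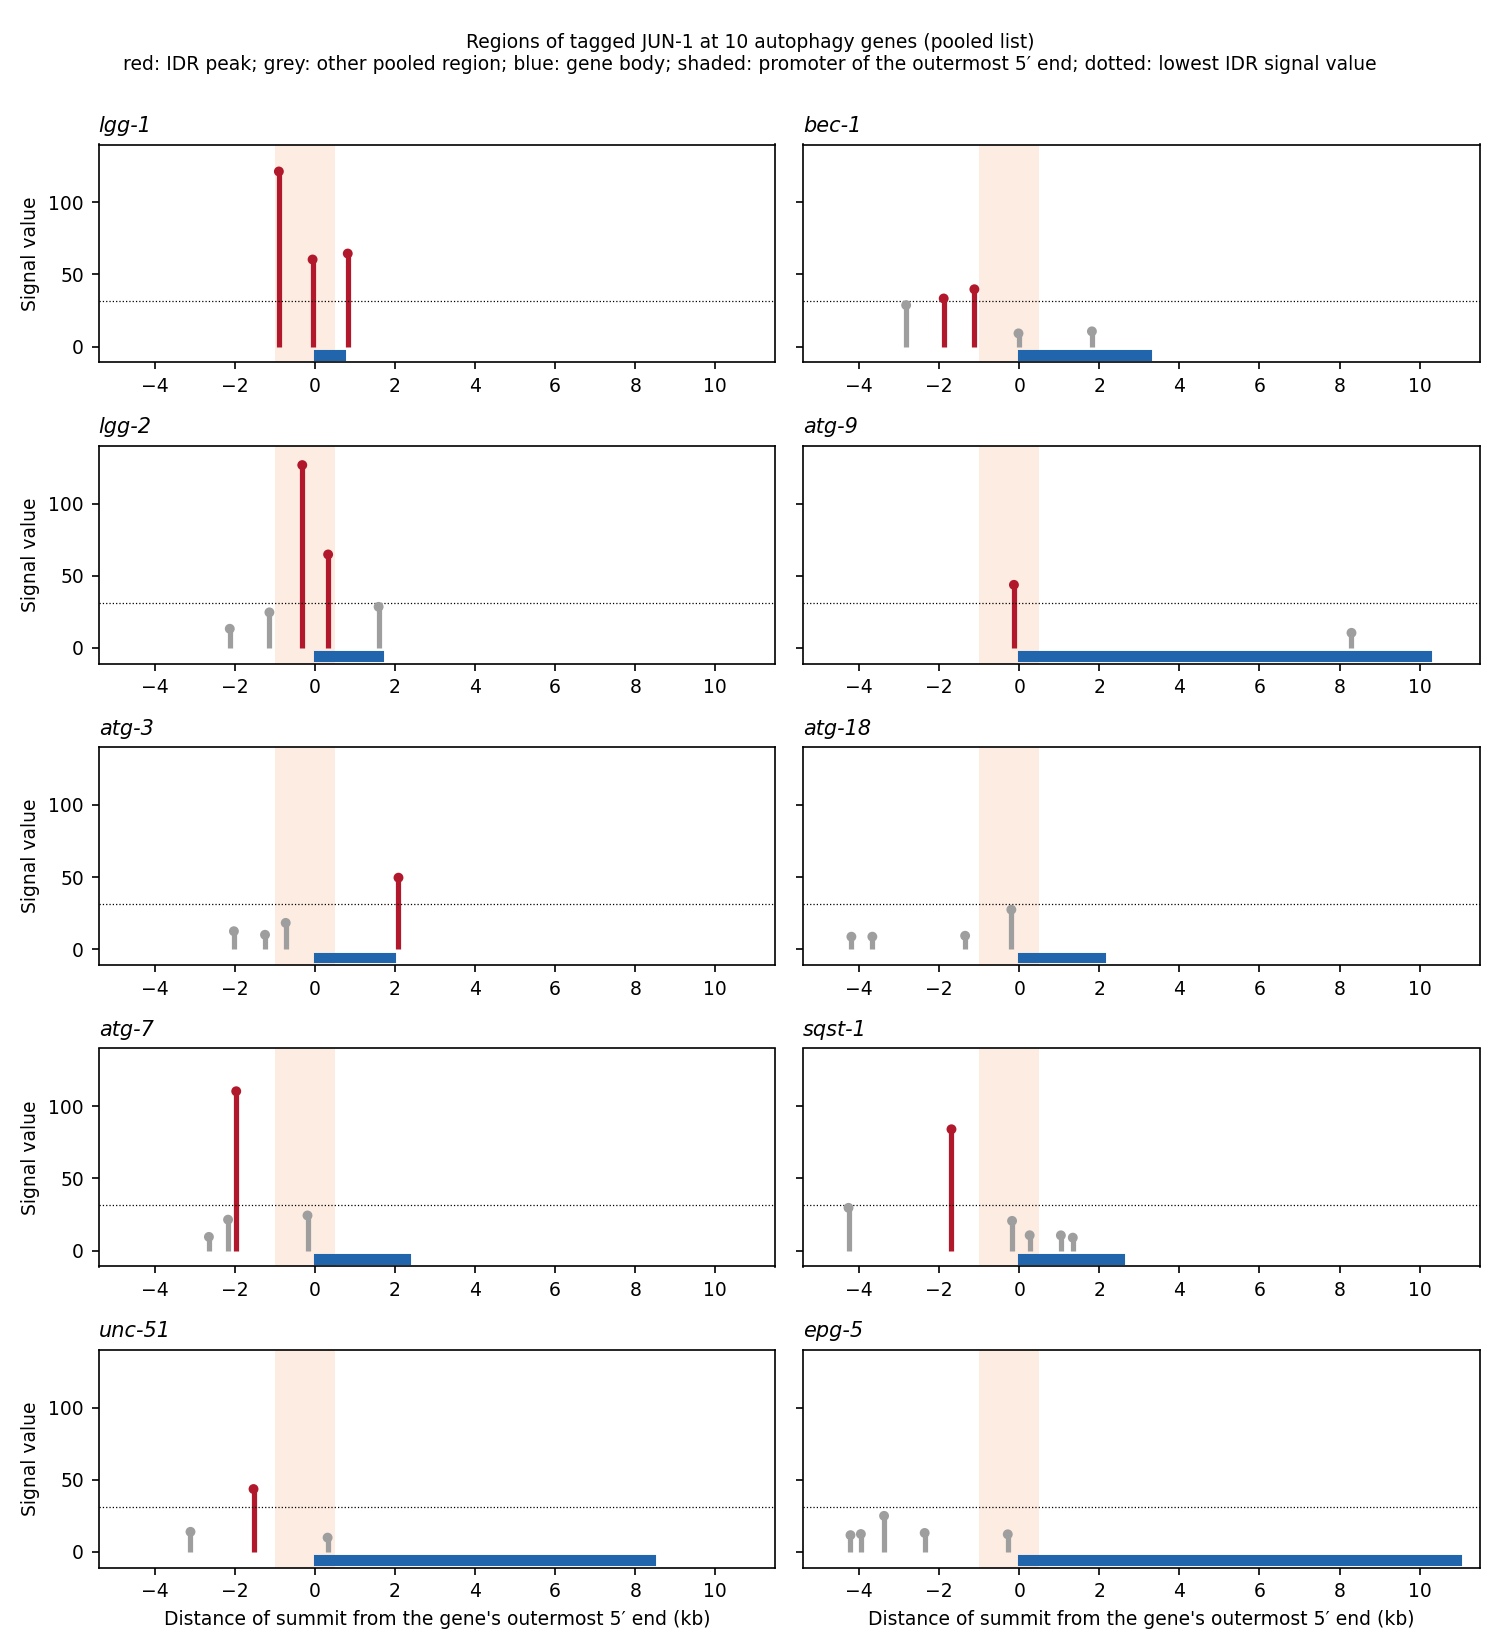
Each panel plots the pooled regions of 1 gene by the distance of the summit from the gene's outermost 5′ end (kb, negative is upstream) against the authors' signal value. Red marks IDR peaks, grey the other pooled regions, the blue bar the gene body, the shading the promoter of the outermost 5′ end and the dotted line the lowest IDR signal value, 31.4; red peaks stand inside or beside the shading at lgg-1, lgg-2 and atg-9, upstream of it at atg-7, unc-51, bec-1 and sqst-1, at the far end of atg-3 and nowhere at atg-18 and epg-5.

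The conjugation enzymes atg-7 and atg-3 each had 1 IDR peak, and each peak was nearer to another gene. ATG-7 is the E1-type enzyme that activates Atg8-type proteins, and ATG-3 the E2-type enzyme that passes them to lipid. The peak upstream of atg-7 (WBGene00010882, chrIV:11078682-11081055, minus strand) at chrIV:11082825-11083214 was strong in both replicates, with 110 pooled (rank 207), 52.5 in replicate 1 (rank 177) and 57.9 in replicate 2 (rank 265). Its summit lay 1965 bp upstream of the 5′ end of atg-7, beyond the neighbouring gene let-70, which encodes a ubiquitin-conjugating enzyme and ends 30 bp from atg-7 on the same strand. It was in the promoters of let-70, 767 bp upstream, and of the kinesin light chain gene klc-1 on the other strand, 715 bp upstream. Whether atg-7 and let-70 share a transcript was not tested. In the atg-7 promoter the strongest pooled region had its summit 185 bp upstream, within the 3′ untranslated region of let-70. It had a signal value of 24.3 (rank 4000), with 14.2 in replicate 1 and 9.58 in replicate 2, and was not in the IDR list. Replicate 1 also listed a region of 17.7 (rank 1860) in a coding exon 48 bp downstream of the 5′ end.

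At atg-3 (WBGene00021922, chrIV:1010512-1012502, plus strand) the IDR peak, chrIV:1012404-1012793, covered the far end of the gene. Its summit lay past that end, in intergenic sequence. The peak's signal value was 49.6 pooled (rank 1269), 14.4 in replicate 1 (rank 2654) and 36.0 in replicate 2 (rank 837), so it was much higher in the order of replicate 2. It counts as a promoter peak of atg-3 only through the short transcript Y55F3AM.4b.1, 458 bp downstream of whose 5′ end the summit fell. From the 5′ end of the long transcript Y55F3AM.4a.1 it was 2087 bp downstream, and it was 25 bp upstream of rbm-39, which encodes an RNA-binding protein. In the promoter of the long transcript the strongest pooled region, 729 bp upstream, had a signal value of 18.3 (rank 6029).

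The IDR peaks of unc-51 and bec-1 lay upstream of their promoters. UNC-51 is the Atg1-type kinase that starts autophagosome formation, and BEC-1, the relative of Beclin 1, belongs to the complex around the lipid kinase VPS-34. At unc-51 (WBGene00006786, chrV:19995986-20004485, minus strand) the summit of the only IDR peak was 1533 bp upstream, in intergenic sequence of a 3284 bp gap to the next gene. It had 43.6 pooled (rank 1622), 27.1 in replicate 1 (rank 792) and 23.4 in replicate 2 (rank 2000). The 1 pooled region in the unc-51 promoter was weak, with 9.92 pooled (rank 16490) and 6.29 in replicate 2, and replicate 1 listed none there.

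At bec-1 (WBGene00000247, chrIV:5661141-5664425, minus strand) the replicates differed more than at any of the other genes. The peak whose summit was 1120 bp upstream of the outer 5′ end had 39.7 pooled (rank 1883) and 34.5 in replicate 2 (rank 921), but only 3.88 in replicate 1 (rank 24531), where the nearest summit was 138 bp away. The ratio of replicate 2 to replicate 1, 8.88, was above 99.9% of those of the 2702 IDR peaks matched in both replicates. The peak 1886 bp upstream had 33.3 pooled (rank 2513), near the low end of the IDR list, with 17.6 in replicate 1 (rank 1865) and 15.2 in replicate 2 (rank 3943). A pooled region 2824 bp upstream with 28.8 (rank 3139) fell just outside the IDR list. In the promoters of the 2 annotated 5′ ends, pooled regions had signal values of 10.6 and 9.17.

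The membrane genes differed from each other. ATG-9 is the transmembrane protein of the vesicles that feed the growing membrane, and ATG-18 is a WIPI-type protein that binds the lipid made by the lipid kinase. At atg-9 (WBGene00020706, chrV:349385-359658, plus strand) the IDR peak at chrV:349058-349447 had its summit 132 bp upstream of the outer 5′ end and 8389 bp upstream of that of the short transcript. Its signal value was 43.7 pooled (rank 1609), 16.9 in replicate 1 (rank 2007) and 24.8 in replicate 2 (rank 1802), a moderate peak in all 3 lists. At atg-18 (WBGene00018294, chrV:8629174-8631327, minus strand) the strongest region had its summit at a similar place, 197 bp upstream, but was not in the IDR list, with 27.4 pooled (rank 3376), 8.58 in replicate 1 (rank 6272) and 18.7 in replicate 2 (rank 2866). Its other 3 pooled regions had signal values of 8.72 to 9.37.

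The receptor gene sqst-1 had a strong distant peak, and the fusion gene epg-5 had weak regions only. SQST-1 is the p62-type receptor that carries ubiquitinated cargo into autophagosomes, and EPG-5 tethers autophagosomes to the endosomes and lysosomes they fuse with. At sqst-1 (WBGene00011737, chrIV:12034282-12036891, plus strand) the IDR peak at chrIV:12032395-12032784 had 84.1 pooled (rank 395), 39.8 in replicate 1 (rank 328) and 46.3 in replicate 2 (rank 489). Its summit lay 1692 bp upstream, in the 2127 bp gap to mrpl-51, a mitochondrial ribosomal protein gene on the same strand, whose 5′ end was nearer, with the summit 1266 bp downstream of it. In the sqst-1 promoter a pooled region 179 bp upstream had 20.6 (rank 5100), with 7.57 in replicate 1 and 15.5 in replicate 2.

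At epg-5 (WBGene00016968, chrII:6598344-6609365, minus strand) the strongest of 5 pooled regions, 3375 bp upstream, had a signal value of 25.001 (rank 3850). A pooled region 286 bp upstream, in the promoter, had 12.2 (rank 11423), and replicate 2 listed none in the promoter. The strongest region of replicate 1, in a coding exon 8340 bp downstream of the 5′ end, had 13.9 (rank 2789) and no counterpart in the other lists. Among all 10 genes, the region just inside the IDR list was the weaker peak of bec-1, at 33.3, and those just outside were at sqst-1, bec-1 and lgg-2, at 29.6, 28.8 and 28.5.

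The IDR peaks were collected over spans that reach 5 kb upstream and so well beyond the promoter. Of the 12 IDR peaks, 6 lay in the promoter of the gene itself and 6 outside it, and 9 had their summit upstream of the nearest 5′ end of that gene. For 9 peaks no other coding gene had a nearer 5′ end, 3 lay in the promoter of another gene, and 4 lay in no promoter at all. The like shares over all IDR peaks are not given here, so these counts of peaks describe the 12 only. At atg-7, unc-51, bec-1 and sqst-1, 4 of the 10 genes, no IDR summit lay in the promoter and 1 or more lay 1001 to 2000 bp upstream, which was so at 2.78% of coding genes. This distance was chosen after the positions had been seen. When the lower-ranked regions are counted too, all 10 genes had a pooled summit in the promoter, against 39.2% of coding genes.

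**Figure D2:**
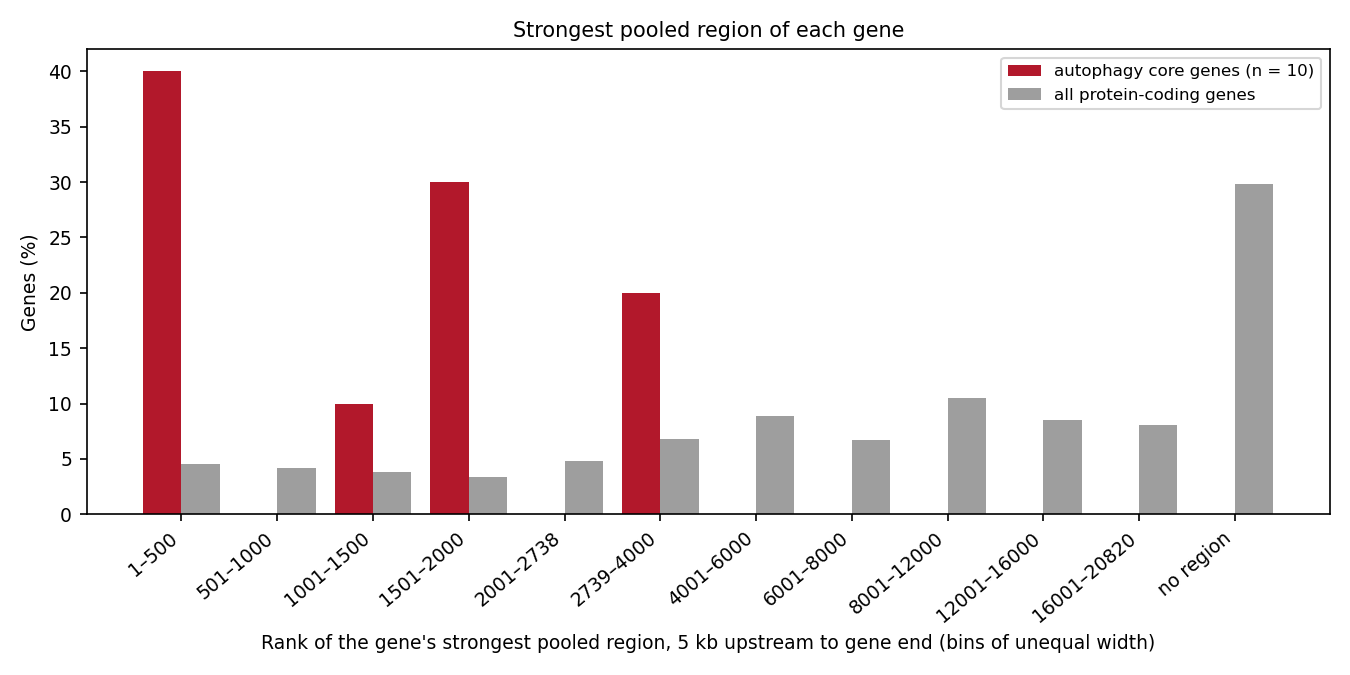
The bars give the percentage of the 10 autophagy core genes (red) and of all 19973 coding genes (grey) by the rank of the strongest pooled region between 5 kb upstream and the gene end, in bins of unequal width with the strongest at the left. The 10 genes fill bins up to rank 4000 only, with 4 of them among ranks 1 to 500, whereas 29.8% of coding genes have no region.

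By strongest pooled region the 10 genes ranked lgg-2, lgg-1, atg-7, sqst-1, atg-3, atg-9, unc-51, bec-1, atg-18 and epg-5. Their median rank was 1439, against 5688 for the 14015 coding genes with any region, and 12.1% of all coding genes reached rank 1439. The first 4 genes were within the 500 strongest regions, as were 4.51% of coding genes, and none of the 10 lacked a region, as 5958 coding genes did. In each replicate list the same 4 genes came first, but lgg-1 was ahead of lgg-2 in replicate 1 (rank 107 against 142) and behind it in replicate 2 (209 against 150). The order of lgg-1 and lgg-2 is thus not settled by the replicates. Nor is that of unc-51, bec-1, atg-9 and atg-3, whose best ranks were 792, 1865, 2007 and 2654 in replicate 1 and 2000, 921, 1802 and 837 in replicate 2.

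Of the 12 IDR peaks, 10 were among the 2738 strongest regions of each replicate list, against 64.9% of all IDR peaks. The exceptions were the 2 peaks of bec-1. A promoter summit among those strongest regions in both replicates was found at 4 of the 10 genes, against 6.56% of coding genes. The IDR list was derived from the replicate lists, and both of those were made with 1 further file in common, so presence in all lists is partly built in. Signal values were higher in replicate 2 for 9 of the 12, with a median ratio of 1.22, where all matched IDR peaks had a median ratio of 1.40 and a central 95% range of 0.561 to 4.104. Except for the bec-1 peak 1120 bp upstream, the peaks had ratios inside that range, the lowest being 0.860 at the other bec-1 peak.

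**Figure D3:**
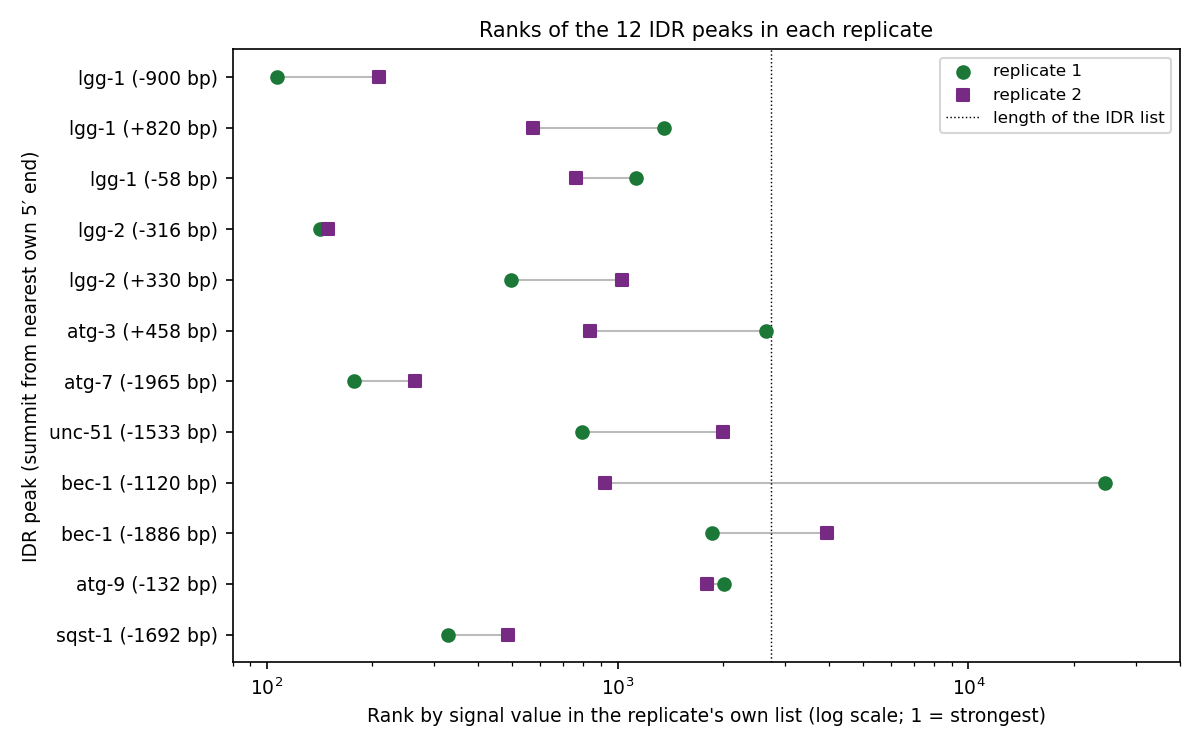
Each line joins the ranks of 1 IDR peak in replicate 1 (circles) and replicate 2 (squares) on a log scale, with the strongest at the left and the dotted line at rank 2738, the length of the IDR list. The leading peaks of lgg-1, lgg-2, atg-7 and sqst-1 lie left of rank 500 in both replicates, and the 2 peaks of bec-1 each cross the dotted line in 1 replicate, at rank 24531 in replicate 1 and rank 3943 in replicate 2.

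Among 24 other genes of the pathway, 6 had an IDR summit in the promoter and 18 had none, where 9.5% of all coding genes had one. A pooled summit lay in the promoter of 15 of them and was missing at 9, against 39.2% of coding genes with one. In the span, 13 of the 24 had an IDR peak, against 20.7% of coding genes. In the UNC-51 complex, the scaffold gene epg-7 had the strongest promoter peak of all 34 genes, 180 bp upstream, with 144 pooled (rank 92), 65.0 in replicate 1 and 75.3 in replicate 2. The subunit genes atg-13 and epg-9 had promoter regions of 17.7 and 27.2 below the IDR list. Elsewhere in its span epg-9 had 2 IDR peaks, and atg-13 had none. Of the lipid kinase complex, vps-34 had no pooled promoter region, and vps-15 and epg-8 had 13.7 and 22.7. None of the 3 thus had an IDR peak in the promoter, which for so few genes is close to the 9.5% of all coding genes. Only epg-8 among them had an IDR peak in its span.

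Genes that act with atg-9 and atg-18 on the membrane both had promoter peaks. The lipid transfer gene atg-2 had 38.5 pooled (rank 1980), with 15.7 in replicate 1 and 26.7 in replicate 2, and the WIPI-type gene epg-6 had 49.2 (rank 1290), with 18.2 and 31.6. None of 7 further conjugation genes, which include the Atg12-type gene lgg-3, the proteases atg-4.1 and atg-4.2, atg-5 and atg-10, had an IDR summit in the promoter. For so few genes that is close to the 9.5% of all coding genes. In the span only atg-4.1 had an IDR peak, against 20.7% of coding genes. Of these 7, 4 had no pooled region in the promoter and 3 had one, against 39.2% of coding genes with one. The highest was atg-16.1 with 17.5. In the group of metazoan factors and cargo, only the late endosome GTPase gene rab-7 had an IDR summit in the promoter, 777 bp upstream. Its signal value was 113 pooled (rank 191), 46.3 in replicate 1 and 64.0 in replicate 2. This peak also lay in the promoters of W03C9.5 and mex-1.

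Of 4 regulators, hlh-30 and daf-15 had IDR summits in the promoter, against 9.5% of all coding genes. All 4 had an IDR peak in the span, against 20.7% of coding genes. HLH-30 is the TFEB-type transcription factor that activates autophagy and lysosome genes. Its gene had 3 IDR summits in its promoters and 6 IDR peaks in its span, the strongest promoter one at 49.4 pooled (rank 1277) with replicates that differed, 7.68 in replicate 1 (rank 7655) and 44.2 in replicate 2 (rank 542). The raptor gene daf-15 of the TOR complex had 35.0 pooled (rank 2325), with 11.2 in replicate 1 and 21.6 in replicate 2. The TOR kinase gene let-363 had no pooled promoter region, and the AMP-activated kinase gene aak-2 fell just below the IDR list with 30.1 (rank 2937).

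**Figure D4:**
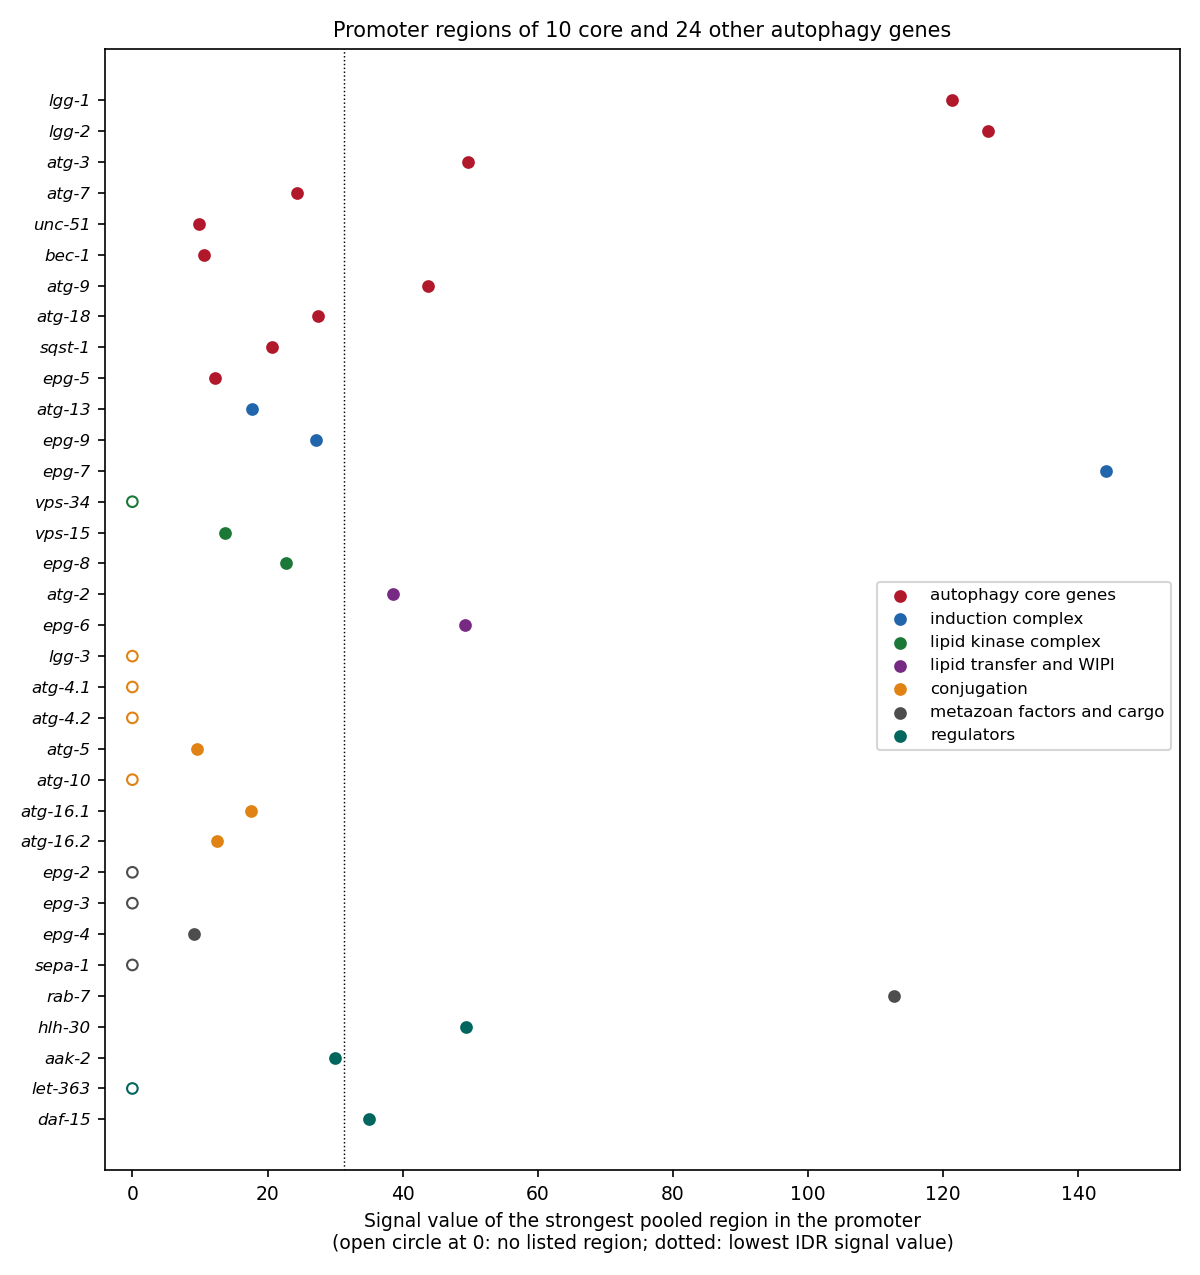
Points give the authors' signal value of the strongest pooled region in the promoter of each of the 10 core genes (red, top) and 24 other autophagy genes (other colours by role), with open circles at 0 for genes with no pooled region there and a dotted line at the lowest IDR signal value, 31.4. Beyond 100 lie lgg-1, lgg-2, epg-7 and rab-7, and the 4 core genes and 6 others right of the line are those with an IDR summit in the promoter.

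The summit windows of the 12 IDR peaks were searched for motifs. On both strands, 7 motifs were looked for within 50 bp of the summit: the AP-1 site TGACTCA, the CRE TGACGTCA, the GATA site TGATAA, the E-box CACGTG, the repeat GAGAGAGA, CTCTCTGC and the C/EBP palindrome TTGCGCAA. A match to any of them was found in 3 of 12 windows, against 39.0% of all IDR windows. Whether so small a number of windows differs from that share was not tested. No window of the 12 had the AP-1 site, which 3.4% of IDR peaks and 1.5% of lower-ranked regions held. The CRE, the other classic site of AP-1 and CREB-type bZIP factors, was in 1 window, that of lgg-1 past the gene end, against 1.13% of IDR peaks and 0.664% of lower-ranked regions. The atg-9 window held the E-box, the kind of site that TFEB-type factors bind, against 6.98% and 2.16%, and the bec-1 window 1886 bp upstream held the GATA site, against 24% and 14.2%.

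After the windows had been read, 2 shorter patterns were added, so their counts describe these windows only. TCACATG was in 3 of the 12, the windows of lgg-1 900 bp and 58 bp upstream and of lgg-2 316 bp upstream, against 3.94% of IDR peaks and 1.67% of lower-ranked regions. In the printed sequences it reads TCACATG at lgg-2 and at the distal lgg-1 peak and CATGTGA, its reverse complement, at the proximal one. TGACGT, contained in the CRE, was in 3 of the 12, those of lgg-1 past the gene end, of unc-51 and of bec-1 1886 bp upstream, against 7.27% and 3.66%. The windows of atg-7 and sqst-1, among the 4 strongest, held none of the patterns. The GC content of the 12 windows had a median of 50.5% (33.7 to 62.4%), against 43.6% for all IDR peaks and 35.6% for lower-ranked regions. A match is a description of the letters in the window and not evidence of a bound site.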

How the data were processed

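The authors deposited narrowPeak region lists for ce10 and ce11. The text files deposited with the samples trace each replicate list to the alignments of that replicate and 1 further file, the pooled list to both replicates and that file, and the IDR list to these lists. Peak caller, aligner, versions and depth: not given in the sources used here. The deposited signal value is a score of unstated scale, and the deposited −log10 q-value was not used for ranking because nearly all IDR peaks share its highest value.

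Computed here were the ranks by signal value, the distance of each summit to each transcript 5′ end (Ensembl release 115, WBcel235, whose chromosomes hold all ce11 regions), and gene counts. Spans overlapped a region by 1 bp or more. Replicate regions were matched by the nearest summit within 200 bp. Lower-ranked regions are the 17626 pooled regions free of overlap with IDR peaks. All 10 genes were named, with every IDR peak. The genes, lists and motifs were chosen with earlier results of these data known. Counting of promoters and motifs was tested on simulated data. Alternatives varied the list, span, promoter, replicates and build. Python 3.11.15, numpy 2.4.6, pandas 2.3.3 and matplotlib 3.10.9 were used.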

Additional observations from a re-analysis of the deposited data

How the results depend on the processing

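The count of 8 genes with an IDR peak in the span stayed at 8 for a span of 2 kb upstream, against 14.6% of coding genes. For a span ending at the next coding gene it was 7, without atg-7, against 14.2%. With the summit inside the span it was 7, without atg-3, against 19.7%. With only peaks strong in both replicates, a setting added after seeing the data, it was 7, without bec-1, against 14.4%. It was 8 in the strongest regions of replicate 2 alone (20.5% of coding genes) and of replicate 1 alone (19.8%). With the 1369 strongest IDR peaks it was 5, against 11.6% of coding genes. The count of 4 genes with an IDR summit in the promoter was 3 with the 1369 strongest peaks, against 4.95% of coding genes. It was also 3 with a shorter promoter (7.29%) and with the nearest 5′ end only (7.43%). It was 4 in replicate 2 alone (9.43%), with only peaks strong in both (6.41%) and in build ce10. In replicate 1 alone it was 5 (8.85%). With a promoter of 2000 bp upstream it was 8, against 12.3%, since atg-7, unc-51, bec-1 and sqst-1 then count. The count of 4 genes strong in both replicates was 2 with 1369 regions a replicate, against 3.3%. The median rank of 1439 was 879 without replicate 1 and 1328.5 without replicate 2, in replicate lists longer than the pooled one, and 3688 with promoter regions only, against 6665 for coding genes with such a region. All 10 genes had a pooled promoter region, and 9 had one in the list of replicate 2 (45.8% of coding genes) and 9 in that of replicate 1 (45.5%). For the 24 other genes the count of 6 was 4 with the 1369 strongest peaks, against 4.95% of coding genes. It was 8 with a promoter of 2000 bp upstream, against 12.3%, and 5 or 6 in the other settings. Unknown depth limits how weak a region could have been listed.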
